A study of Rattus norvegicus with 12 samples.

Results

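Of the 12 RNA sequencing libraries of primary rat oligodendrocyte precursor cells (OPCs), 6 received no cytokines, and these 6 were split by replicate number for the present comparison. CTL replicate 3 and GAL replicate 3, which are 2 of the 12 libraries, were set against the 4 others without cytokines, CTL replicates 1 and 2 and GAL replicates 1 and 2. The split follows the labels, but it was drawn because interferon genes were already known to be higher in replicate 3. Its calls and fold changes therefore describe these libraries, are given without p-values and support nothing further. The labels do not say whether CTL replicate 3 and GAL replicate 3 come from 1 culture, and they do not name separate cultures for the other libraries. P-values given for other comparisons then measure the spread between these libraries, which may be technical.

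The study asked how a cytokine cocktail changes differentiating OPCs and what galinex, an agonist of the receptor GPR17, does in its presence. The OPCs came from mixed glial cultures of the cortex of newborn wild-type rat pups, with sexes pooled. Microglia were shaken off first and OPCs afterwards, and the cells proliferated before they were placed in differentiation medium. CTL received only the solvent of galinex, and GAL received galinex at 10 nM. CTK-2 received the cytokines IFN-γ, IL-1β and TNF-α, each of them at 2 ng/mL, and CTK2+GAL received the same cocktail followed after 6 h by galinex at 10 nM. RNA was taken 24 h after galinex or its solvent, and each of the 4 groups holds 3 libraries.

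Interferon-γ binds a receptor whose kinases Jak1 and Jak2 activate STAT proteins, which bind GAS elements and induce Irf1 and other genes. Type I interferons act on ISRE elements through a complex that holds STAT2 and IRF9. TNF-α and IL-1β mainly activate NF-κB, which induces its own inhibitor Nfkbia and many chemokines. In oligodendrocyte lineage cells interferon-γ is known to induce MHC class I genes and to hold back differentiation.

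Promoter sequences of 6 genes are shown first, because they hold GAS, ISRE and NF-κB letters in the 3 kinds of genes the comparison turns on. Irf1, Bst2, B2m and Tap1 were raised in replicate 3 without cytokines, Nfkbia kept its level there, and Cxcl11 had no count in any library without cytokines. Each run is the 250 bases before the gene's start in RefSeq on GRCr8, 5′ to 3′ on the strand of the gene. The windows lie at chr10:38417685-38417934 on the plus strand (Irf1), chr16:18254968-18255217 on the minus strand (Bst2) and chr3:129549080-129549329 on the plus strand (B2m). Those of the others lie at chr20:4668544-4668793 on the minus strand (Tap1), chr6:78597073-78597322 on the minus strand (Nfkbia) and chr14:15973478-15973727 on the plus strand (Cxcl11). Capitals mark the letters TTCNNNGAA of a GAS element, TTTCNNTTTC of an ISRE, and the NF-κB consensus of 10 letters, each searched on both strands.
Irf1: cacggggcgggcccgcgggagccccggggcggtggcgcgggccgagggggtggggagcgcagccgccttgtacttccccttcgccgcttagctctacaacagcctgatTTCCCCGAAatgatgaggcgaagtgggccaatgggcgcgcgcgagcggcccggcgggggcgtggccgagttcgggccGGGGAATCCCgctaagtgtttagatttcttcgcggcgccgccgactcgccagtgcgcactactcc
Bst2: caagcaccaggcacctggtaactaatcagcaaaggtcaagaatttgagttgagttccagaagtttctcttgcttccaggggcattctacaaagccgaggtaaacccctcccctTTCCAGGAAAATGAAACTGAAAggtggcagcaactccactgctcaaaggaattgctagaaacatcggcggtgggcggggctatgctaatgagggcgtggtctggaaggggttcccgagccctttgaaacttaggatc
B2m: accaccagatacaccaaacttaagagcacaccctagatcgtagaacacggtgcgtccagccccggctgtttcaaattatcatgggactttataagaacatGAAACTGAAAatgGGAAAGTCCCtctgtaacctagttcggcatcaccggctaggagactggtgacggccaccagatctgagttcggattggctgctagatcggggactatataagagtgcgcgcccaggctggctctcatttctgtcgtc
Tap1: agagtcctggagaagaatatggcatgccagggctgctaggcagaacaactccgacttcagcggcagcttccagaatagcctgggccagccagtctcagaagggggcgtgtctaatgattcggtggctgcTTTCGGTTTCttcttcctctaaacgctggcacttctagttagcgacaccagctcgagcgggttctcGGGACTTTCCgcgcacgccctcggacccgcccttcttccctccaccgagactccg
Nfkbia: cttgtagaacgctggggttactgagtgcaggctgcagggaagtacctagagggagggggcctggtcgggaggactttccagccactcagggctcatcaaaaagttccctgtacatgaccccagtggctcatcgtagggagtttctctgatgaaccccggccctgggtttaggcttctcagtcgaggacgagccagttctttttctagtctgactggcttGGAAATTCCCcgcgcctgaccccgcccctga
Cxcl11: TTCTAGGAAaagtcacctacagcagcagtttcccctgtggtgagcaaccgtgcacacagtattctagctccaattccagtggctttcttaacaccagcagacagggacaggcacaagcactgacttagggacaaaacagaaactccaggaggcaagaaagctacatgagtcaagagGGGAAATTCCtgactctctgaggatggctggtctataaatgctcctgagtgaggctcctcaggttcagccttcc
In Irf1 the GAS letters lay 142 to 134 bases before the start and the NF-κB letters 65 to 56 bases before it. In Bst2 the GAS letters (137 to 129 bases before the start) overlapped an ISRE match (131 to 122), which overlapped another (125 to 116). B2m held an ISRE match 150 to 141 bases before its start, and Tap1 held one that begins 121 bases before its start. NF-κB letters stood in B2m (137 to 128), Tap1 (55 to 46), Nfkbia (31 to 22) and Cxcl11 (74 to 65), and Cxcl11 also held GAS letters at the far end of its window (250 to 242). A match is a description of the letters and does not show that a factor binds there. The 6 genes were chosen as examples and do not stand for their classes. Of 91 raised genes with a window, 41 (45.1%) held GAS or ISRE letters.

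Library totals were 5836987, 5207182 and 6169733 counts in CTL replicates 1, 2 and 3, and 2600797, 6064182 and 5908813 in GAL replicates 1, 2 and 3. The shallowest library, GAL replicate 1, is among the 4 set against replicate 3. The cytokine libraries held between 4718825 and 8978185 counts. Mitochondrial genes took 2.51% of the counts in CTL replicate 3 and 3.08% in GAL replicate 3, within the range of 2.43% to 3.11% in the 4 others. Levels are given as CPM, counts scaled to a common library size after TMM normalization, and they are compared between libraries for 1 gene, not between genes.

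Genes of the OPC stage were present in all 6 libraries without cytokines. Pdgfra, the receptor for PDGF on OPCs, was at 416 CPM in CTL replicate 3 and 381 CPM in GAL replicate 3. It was at 442 and 388 CPM in CTL replicates 1 and 2 and at 456 and 405 CPM in GAL replicates 1 and 2. All 8 listed OPC genes with a symbol, among them Cspg4, Ptprz1, Nkx2-2 and Tnr, lay within 1.5-fold, which here means that the 95% interval of the log2 fold change lay within 0.59 of 0. The same was true of 68.5% of all tested genes. Symbols exist here only for genes that the study had called in CTK-2 versus CTL, so Gpr17, Olig2, Sox10, Ifngr1 and the ligands Ifng and Tnf carry none.

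Of 13348 genes tested, 179 (1.34%) were raised in CTL and GAL replicate 3 against replicates 1 and 2, and 26 (0.195%) fell. A call required an adjusted p of at most 0.05 by edgeR's quasi-likelihood test and a log2 fold change of 0.59 or more in size. Without CTL replicate 3, which leaves GAL replicate 3 alone, 106 genes were raised and 4 fell, and without CTL replicate 1 the genes that fell numbered 13. Both replicate 3 libraries stood above the 4 others for 175 of the 179 raised genes, against 10.8% of all tested genes. At the threshold, the gene just inside (ENSRNOG00000011791) had a log2 fold change of 0.60. Nrarp, just outside, had one of 0.59 at 31.0 CPM in CTL replicate 3 and 27.5 CPM in GAL replicate 3 against a mean of 19.5 CPM in the 4 others. The counts in the raised genes took 0.634% of CTL replicate 3 and 0.579% of GAL replicate 3, and between 0.113% and 0.122% of each of the 4 others. In the 6 cytokine libraries they took between 3.16% and 3.28%. Bulk RNA cannot tell many cells with a small increase from a few cells with a large one.

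Of the 179 raised genes 118 have a symbol, and 160 were also higher with cytokines in both arms, that is in CTK-2 versus CTL and in CTK2+GAL versus GAL. Across all genes 1291 (9.67%) were responsive in this way, and the comparisons share the libraries of the split. CTK-2 versus CTL gave 1538 genes higher (11.5%) and 773 lower (5.79%), and CTK2+GAL versus GAL gave 1558 higher (11.7%) and 766 lower (5.74%). In the 4 libraries of replicates 1 and 2 together, 30 of the raised genes had no count, 29 had 1 to 3 counts and 120 had more. A fold against no count is a lower bound that puts 3 counts over the 4 libraries in its place. Against 1 to 3 counts it is a pooled ratio, and its 95% interval covers counting error only. The median log2 fold change of the raised genes was 2.76 with genes without a count at their bound, and 3.28 by the fit.

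**Figure D1:**
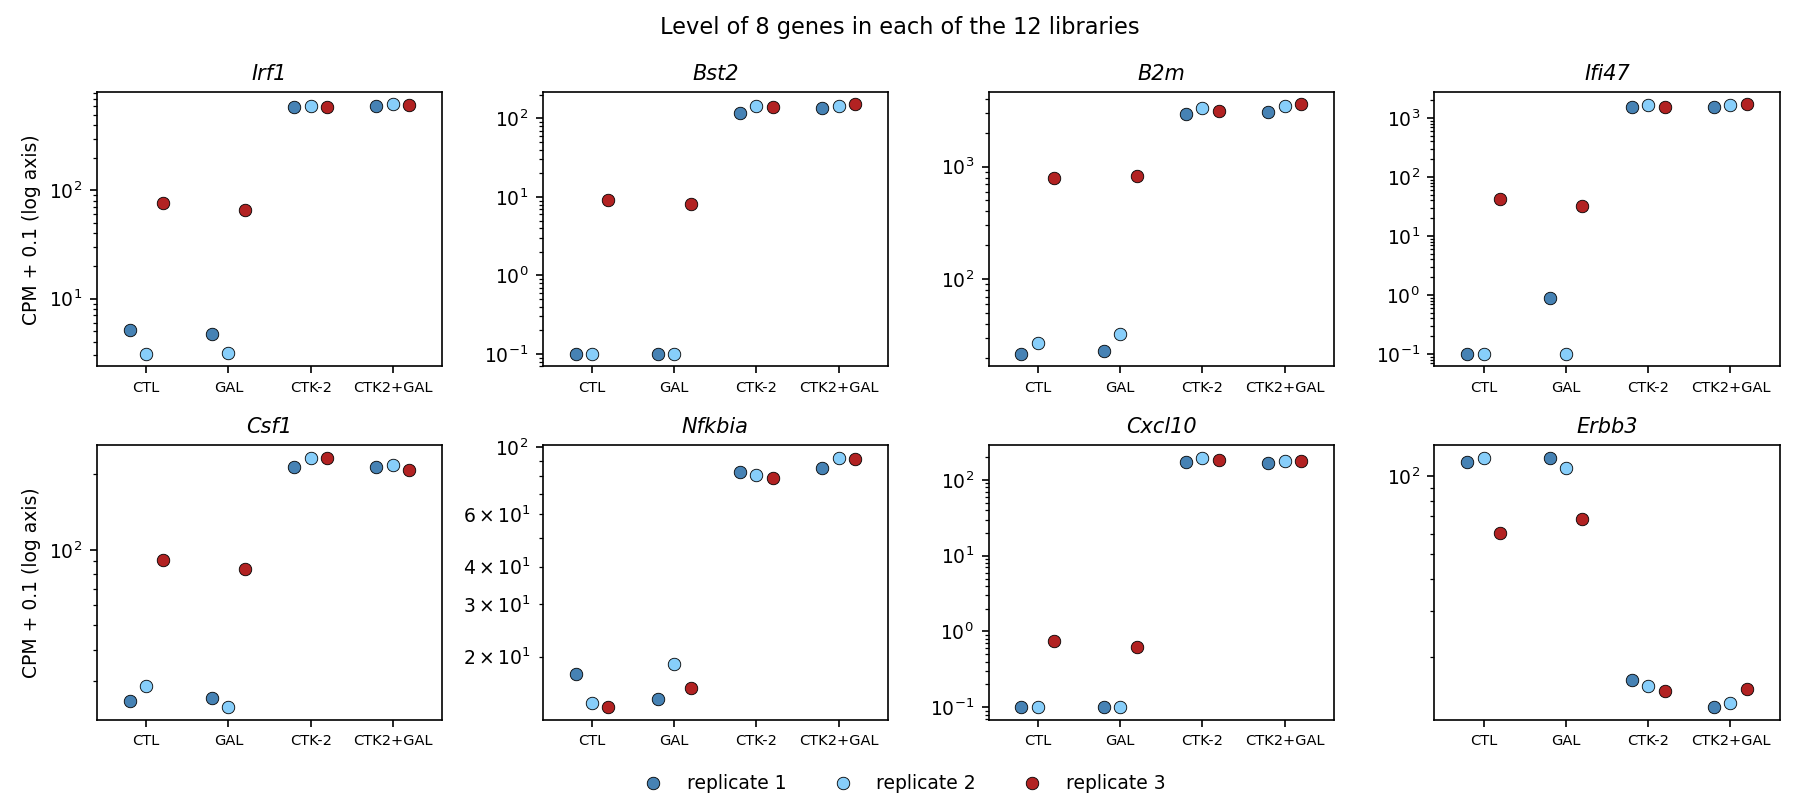
Level of 8 genes in each library, as CPM + 0.1 on a log axis, for the 4 groups, with each point 1 library coloured by replicate number. Replicate 3 of CTL and GAL stands above replicates 1 and 2 for Irf1, Bst2, B2m, Ifi47, Csf1 and Cxcl10, does not stand apart for Nfkbia (13.5 and 15.6 CPM against 13.9 to 18.8 CPM), and stands below them for Erbb3, while the replicates of CTK-2 and of CTK2+GAL lie close together.

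Transcription factors of the interferon response were among the raised genes. Irf1, an early target of interferon-γ, was at 77.0 CPM in CTL replicate 3 and 65.3 CPM in GAL replicate 3. It was at 4.99 and 2.98 CPM in CTL replicates 1 and 2, and at 4.66 and 3.01 CPM in GAL replicates 1 and 2. Both replicate 3 libraries were thus far above the 4 others and far below the cytokine libraries, which held 596 ± 7.65 CPM in CTK-2 and 612 ± 10.8 CPM in CTK2+GAL (SD, n = 3 each). The log2 fold change of Irf1 was 4.23 ± 0.12 (SE). Irf8, a related factor best known from myeloid cells, was at 22.9 CPM in CTL replicate 3 and 21.8 CPM in GAL replicate 3, and at no more than 0.397 CPM in any of the 4 others. Stat2, a subunit of the ISRE-binding complex, was at 127 and 111 CPM in replicate 3 of CTL and GAL and between 31.0 and 35.2 CPM in the 4 others, a log2 fold change of 1.85 ± 0.08.

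Stat3, which answers mainly to cytokines of the interleukin-6 family, was at 184 and 177 CPM in replicate 3 of CTL and GAL and 113 to 140 CPM in the 4 others, without overlap. Its log2 fold change of 0.59 ± 0.07 was just short of the fold threshold, and it was called under 5 alternatives, among them total counts and the CTL arm alone.

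Of the 35 listed ISRE-type interferon genes with a symbol 27 were raised, none fell and none lay within 1.5-fold. Their median log2 fold change was 3.11 with genes without a count at their bound (33 genes with a fold or bound), against 0.00 over all tested genes. All 35 were responsive to cytokines, and over the 1291 responsive genes the median by the fit was 0.23 and 12.4% were raised. Bst2, which tethers budding virus to the cell surface, had 0 CPM in all 4 libraries of replicates 1 and 2. It was at 8.92 CPM in CTL replicate 3 and 8.08 CPM in GAL replicate 3, at least 55.0-fold higher, and at 134 ± 15.1 CPM in CTK-2. Samd9, an antiviral factor, was at 87.6 and 91.1 CPM in replicate 3 of CTL and GAL and between 3.96 and 4.27 CPM in the 4 others.

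Parp9 and Dtx3l, whose proteins form a complex, gave log2 fold changes of 5.21 ± 0.17 and 5.33 ± 0.18. They overlap on opposite strands, and the counting used strand. Mx1, a GTPase against RNA viruses, was at 5.84 CPM in CTL replicate 3 and 4.12 CPM in GAL replicate 3, and at 0.344, 0.199, 1.16 and 0.335 CPM in CTL and GAL replicates 1 and 2. The groups did not overlap, and Mx1 reached 260 CPM on average in CTK-2. Ifit1, Oas1a and Oasl2, sensors and effectors against viral RNA, had no count in the 4 others and were at least 17.8-fold, 9.71-fold and 33.4-fold higher. The 8 members not called, such as Irf7, Ifit2 and Zbp1, had between 1 and 8 counts over both replicate 3 libraries. Irf7 had 6 counts there against 1 in the 4 others, a ratio of 9.71 (1.18 to 447).

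Of the 20 listed GAS-type genes with a symbol, which are best known from interferon-γ, 11 were raised, against 12.4% of all responsive genes, and all 20 were responsive. Ifi47, an interferon-inducible GTPase, was at 41.7 CPM in CTL replicate 3 and 32.7 CPM in GAL replicate 3. It was at 0 CPM in both other CTL libraries and in GAL replicate 2, and at 0.776 CPM in GAL replicate 1. The pooled ratio was 362 (95% interval 99.5 to 2995), and the cytokine libraries held 1597 ± 70.6 CPM in CTK-2. The guanylate-binding proteins Gbp5 and Gbp7, which attack vacuoles of intracellular pathogens, gave ratios of 34.0 (11.1 to 169) and 101 (34.2 to 496). Wars1, a tryptophan tRNA synthetase induced by interferon-γ, lay within 1.5-fold, with 125 CPM in CTL replicate 3, 138 CPM in GAL replicate 3 and 119 to 127 CPM in the 4 others, although CTK-2 held 307 ± 20.1 CPM. Apol3 had no count in the 6 libraries. Guanylate-binding proteins, Oas, Ifit and MHC genes belong to families of similar copies, and read pairs that mapped to several places were left out of the counts, so their levels are uncertain.

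All 11 listed genes of MHC class I presentation with a symbol were raised, with a median log2 fold change of 3.70. All 11 were responsive, and over all responsive genes 12.4% were raised and the median was 0.23. B2m, the light chain of class I molecules, was at 792 CPM in CTL replicate 3 and 823 CPM in GAL replicate 3. It was at 21.5 and 27.0 CPM in CTL replicates 1 and 2, and at 22.9 and 32.2 CPM in GAL replicates 1 and 2. Replicate 3 thus stood between the other controls and the cytokine libraries, which held 3116 ± 185 CPM in CTK-2 and 3349 ± 271 CPM in CTK2+GAL. Tap1, which forms the peptide transporter with Tap2, was at 207 and 182 CPM in replicate 3 of CTL and GAL and between 5.82 and 8.15 CPM in the 4 others. Tap2 was at 32.6 and 28.2 CPM in the same libraries and between 2.41 and 4.77 CPM in the 4 others. The proteasome activator Psme1 and the peptide-trimming Erap1 rose less, with log2 fold changes of 2.76 ± 0.10 and 1.71 ± 0.09. The class I gene RT1-S3 gave a ratio of 173 (58.7 to 844), and RT1-N2 was at least 37.2-fold higher.

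The rat MHC was taken from the first to the last RT1 gene with a symbol on chromosome 20 (mRatBN7.2, chr20:1287521-4607597). There 22 of 89 tested genes were raised (24.7%), 11 of them without a symbol, against 1.34% of all tested genes. Of the 89 genes 34 were responsive, against 9.67% of all tested genes. Over all responsive genes 12.4% were raised, and this share was not computed for the 34. The raised genes lay on 21 chromosomes, with 28 on chromosome 20 and at most 16 on any other. Of the 9 MHC class II genes with a symbol, 8 of them responsive, 4 were raised, each from few counts. Ciita, the activator of class II genes, was at 0.973 CPM in CTL replicate 3 and 0.516 CPM in GAL replicate 3. It had no count in the 4 others, which makes it at least 4.85-fold higher. Its call was lost in either arm alone, in the 6 libraries without cytokines only, and without CTL replicate 3 or GAL replicate 3. Cd74, the invariant chain, was at 2.59 and 2.92 CPM in replicate 3 of CTL and GAL, a ratio of 53.4 (8.94 to 2172) against a single count in the 4 others. Rfx5 and Lgmn lay within 1.5-fold.

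The raised genes without a symbol included ENSRNOG00000019542 (mRatBN7.2, chr18:53748631-53772834), at 151 CPM in CTL replicate 3 and 129 CPM in GAL replicate 3 against 0 CPM in 3 of the 4 others and 0.167 CPM in GAL replicate 2. ENSRNOG00000029195 (chr8:108665292-108674099) was at 25.9 and 20.5 CPM in replicate 3 of CTL and GAL with no count in the 4 others, at least 150.5-fold higher.

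Each arm was also set against the cytokine response of the other arm, with which it shares no library. Such a call sets 1 library against 2 and takes the spread from all groups. Since the split was drawn with interferon genes known to be higher, the overlap is a description. It is also raised by the filter on the mean count, which genes with few counts without cytokines pass only through the cytokine libraries. In the CTL arm alone 148 genes (1.11%) were raised in replicate 3, and 142 of them (95.9%) were higher in CTK2+GAL versus GAL, against 11.7% of all tested genes. In the GAL arm alone 106 genes (0.794%) were raised, and 102 of them (96.2%) were higher in CTK-2 versus CTL, against 11.5% of all tested genes. By a count of genes at least 2-fold above each of replicates 1 and 2 with at least 10 counts, 202 genes (1.51%) stood out in CTL replicate 3 and 176 (1.32%) in GAL replicate 3. The lists had 101 genes (0.757%) in common, which is 50.0% of the CTL list and 57.4% of the GAL list.

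**Figure D2:**
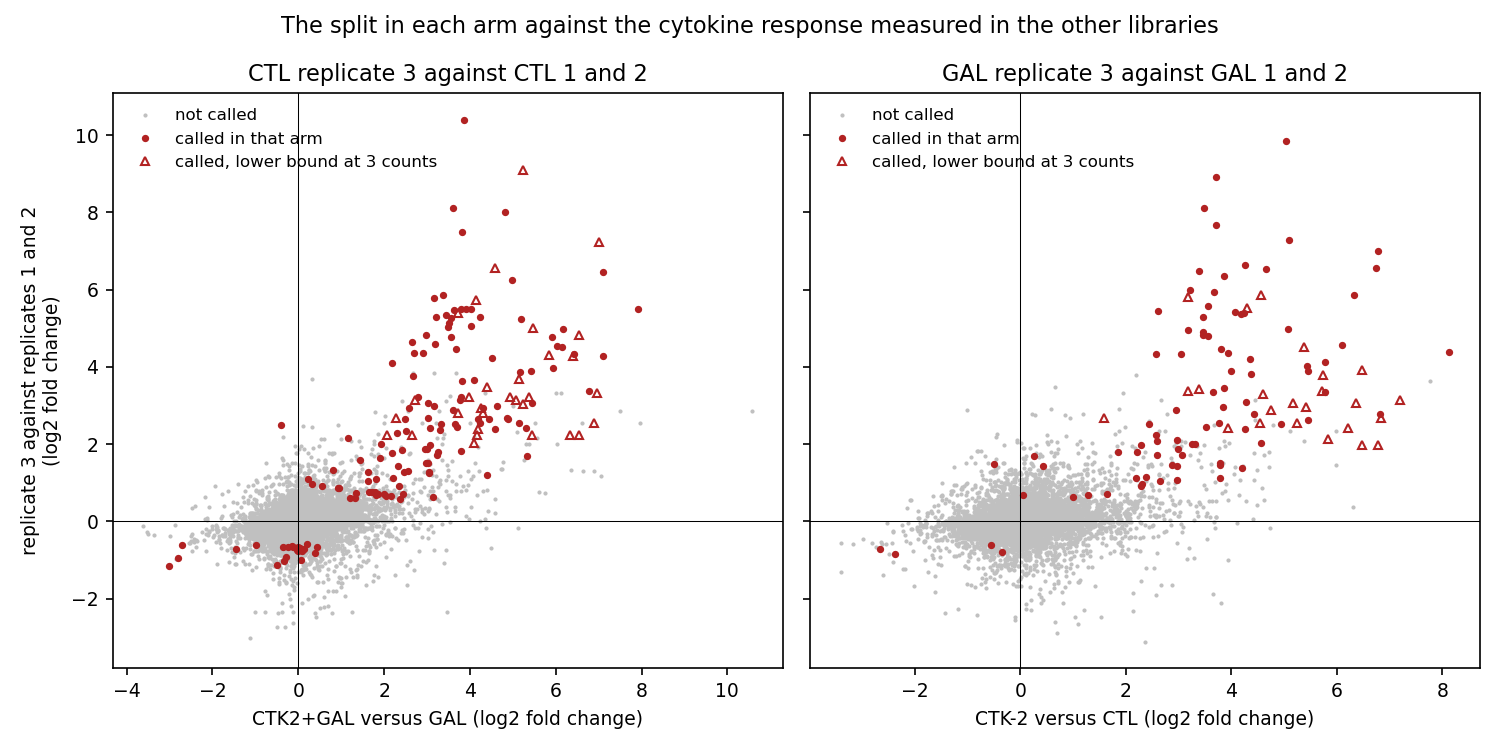
Log2 fold change of replicate 3 against replicates 1 and 2 in CTL (left) and GAL (right) plotted against the log2 fold change with cytokines in the other arm, each point 1 gene. Genes called in that arm are in red, with open triangles where a fold is a lower bound at 3 counts, and most of those raised lie at high values of the cytokine response. In CTL 139 called genes are drawn as points and 31 at a bound, and in GAL 86 and 24.

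The share of the cytokine level was computed as the increase of replicate 3 over replicates 1 and 2 divided by the increase of the 3 cytokine libraries of that arm over the same replicates. Over the 148 raised responsive genes with a mean of at least 5 CPM with cytokines, the median share was 14.0% in CTL (quartiles 6.58% and 22.8%) and 12.8% in GAL (quartiles 5.64% and 19.7%). The 2 arms, which share no library, differed by a median of 1.82 percentage points per gene, and the share was higher in CTL for 114 of the 148 genes. Shares ran from 0.349% to 73.9% in CTL and from 0.293% to 58.4% in GAL.

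B2m reached 24.8% of its cytokine increase in CTL and 23.9% in GAL. Tap1 reached 24.3% and 21.7%, Irf1 12.3% and 10.1%, and Stat2 18.6% and 16.0%. Bst2 reached 6.66% and 5.61%, Ifi47 2.61% and 1.99%, Mx1 2.14% and 1.22%, and Gbp5 0.931% and 0.926%. Genes of the same family of targets thus lay at very different shares. Medians were taken over all responsive members with a symbol at a mean of at least 5 CPM with cytokines, raised or not. The median share in CTL and GAL was 16.4% and 21.7% for MHC class I (11 genes). Gene by gene, the MHC class I share was higher in CTL for 9 of the 11, with a median difference of 1.63 percentage points. The median share was 7.89% and 7.49% for ISRE-type genes (33 genes) and 3.01% and 3.04% for GAS-type genes (19 genes). It was 3.12% and 1.76% for MHC class II (8 genes), 2.97% and 6.83% for NF-κB genes (17 genes) and 0.875% and 0.146% for chemokines (10 genes).

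Some high shares belonged to genes with a small cytokine response. Avil, an actin-binding protein, was at 5.35 CPM in CTL replicate 3 and 4.30 CPM in GAL replicate 3 and between 1.79 and 3.10 CPM in the 4 others. Its share of the increase was 59.6% in CTL and 58.4% in GAL, where the cytokine levels were 7.32 ± 1.10 CPM in CTK-2 and 5.81 ± 1.04 CPM in CTK2+GAL. Hmcn1, an extracellular matrix protein, reached 68.1% in CTL and 32.3% in GAL. Cpt1a, which brings fatty acids into mitochondria, reached 38.6% and 36.4%. The call of Hmcn1 was lost without CTL replicate 3, and those of Cpt1a and Avil without CTL replicate 3 or GAL replicate 3. That of Avil was also lost by DESeq2 and without CTL replicate 2 or GAL replicate 2.

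**Figure D3:**
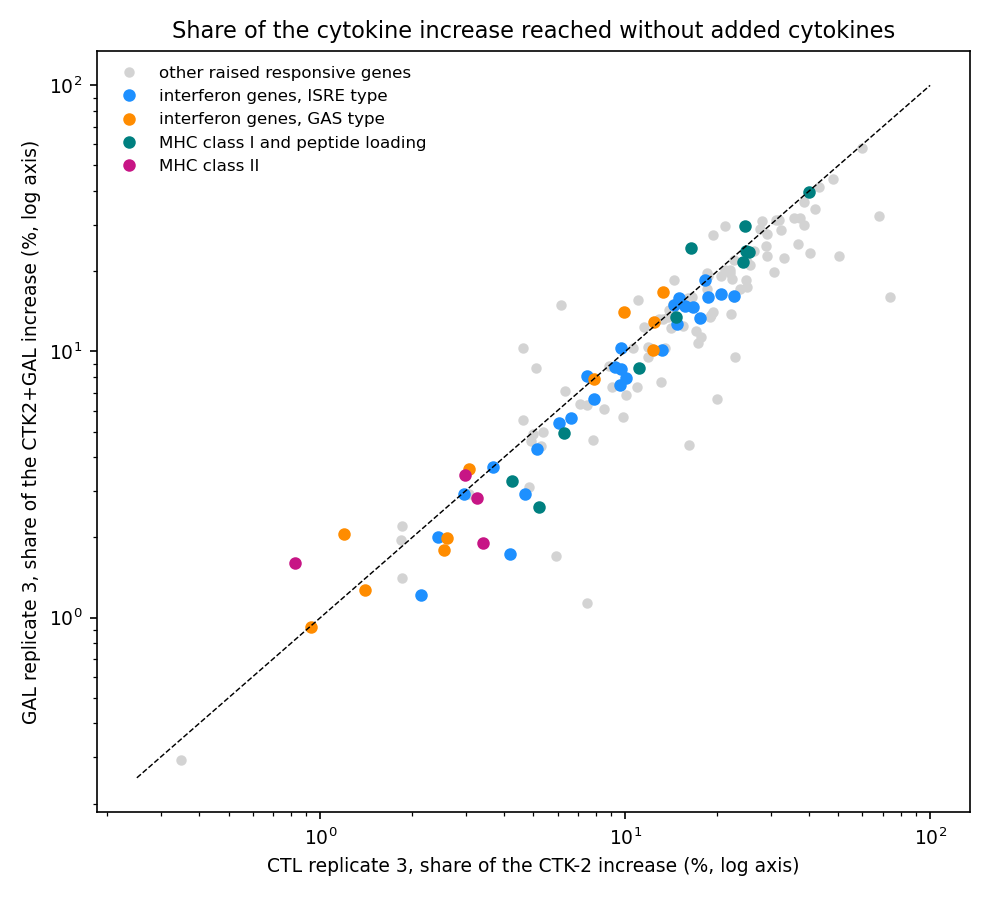
Share of the cytokine increase reached by CTL replicate 3 (x, %, log axis) and by GAL replicate 3 (y, %, log axis) for the 148 raised responsive genes, each point 1 gene, coloured by list, with the line of equal shares dashed. Points lie along the line over a wide range, with MHC class I genes towards higher shares than the GAS-type genes.

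Of the 1291 genes that were higher with cytokines in both arms, 160 (12.4%) were raised in replicate 3 without cytokines and none fell. Another 500 (38.7%) lay within 1.5-fold, against 68.5% of all tested genes, 19 had no count in any of the 6 libraries, and for 612 the interval was too wide to place them. Genes with a large cytokine response were counted in crossed arms, which share no library. In both arms most of these genes were neither raised nor placed within 1.5-fold. Of 439 genes at least 4-fold higher in CTK2+GAL versus GAL, 124 (28.2%) were raised in CTL replicate 3 and 14 lay within 1.5-fold. Of 448 such genes in CTK-2 versus CTL, 97 (21.7%) were raised in GAL replicate 3 and 27 lay within 1.5-fold. The median log2 fold change with cytokines was 3.65 for genes raised in the CTL arm and 0.85 for those within 1.5-fold there, measured in CTK2+GAL versus GAL. Measured in CTK-2 versus CTL it was 3.85 for genes raised in the GAL arm and 0.85 for those within 1.5-fold. A narrow interval needs enough counts without cytokines, so strongly induced genes with few counts there can hardly be placed within 1.5-fold. The counts and medians of that class therefore depend on its definition and do not show that strong responders rarely stay flat.

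Of the 21 NF-κB genes with a symbol 2 were raised, 6 lay within 1.5-fold and 13 could not be placed. Their median log2 fold change was 0.23 with genes at their bound. Over all responsive genes 12.4% were raised and 38.7% lay within 1.5-fold, so the counts of this list lie near those shares and show nothing particular to it. Nfkbia, the NF-κB inhibitor that NF-κB itself induces, was at 13.5 CPM in CTL replicate 3 and 15.6 CPM in GAL replicate 3. It was at 17.4 and 13.9 CPM in CTL replicates 1 and 2, and at 14.4 and 18.8 CPM in GAL replicates 1 and 2. The libraries overlapped, and the 95% interval of the log2 fold change ran from -0.47 to 0.10. With cytokines Nfkbia rose to 80.9 ± 1.85 CPM in CTK-2, a log2 fold change of 2.44 ± 0.10 (edgeR adjusted p = 1.41e-12). Nfkb1, Traf2, Traf3, Birc2 and Tnip1, a subunit, adaptors and regulators of the same pathway, also lay within 1.5-fold. Tnfaip3, a brake on NF-κB, was not called, at 3.57 and 2.58 CPM in replicate 3 of CTL and GAL and 1.39 to 4.27 CPM in the 4 others, against 55.3 ± 2.66 CPM in CTK-2.

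The raised pair on the NF-κB list was Csf1 and Cflar. Csf1, the growth factor of microglia and macrophages, was at 90.6 CPM in CTL replicate 3 and 83.7 CPM in GAL replicate 3 and between 23.4 and 28.6 CPM in the 4 others. The groups were well apart, and Csf1 reached 32.0% and 31.3% of its cytokine increase. Cflar, an inhibitor of caspase 8, gave a log2 fold change of 1.34 ± 0.24 and shares of 20.6% and 19.3%.

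Of the 10 chemokine genes with a symbol 2 were raised, 3 had no count in the 6 libraries and 5 could not be placed. With 12.4% of all responsive genes raised, the count of raised members shows nothing particular to chemokines. Cxcl10, a ligand of CXCR3, was at 0.649 CPM in CTL replicate 3 and 0.516 CPM in GAL replicate 3, which is 7 counts over both, and at 0 CPM in the 4 others. It was called, at least 3.78-fold higher, but reached only 0.349% and 0.293% of its cytokine increase. Cxcl9, another CXCR3 ligand, also had 7 counts over both and none in the 4 others, and was not called. The call of Cxcl10 was lost in either arm alone and when any 1 of the 6 libraries other than GAL replicate 1 was left out. Ccl5, Ccl7 and Cxcl11 had no count in any of the 6 libraries, while Ccl5 was at 18.1 ± 3.01 CPM in CTK-2. A count of 0, which allows up to 3 counts, limits Ccl5 to 2.68% of its cytokine level in CTL replicate 3 and 2.98% in GAL replicate 3, and Cxcl11 to 3.62% and 3.85%. These limits are above the share that Cxcl10 reached, so a response of that size in Ccl5 or Cxcl11 was not detectable at this depth. Cxcl16, a chemokine with a membrane anchor, was raised, with 3.40 and 2.58 CPM in replicate 3 of CTL and GAL. It was at 0.167 to 1.55 CPM in the 4 others, and its shares were 11.0% and 7.34%. Its call was lost in either arm alone and without CTL replicate 3 or GAL replicate 3.

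Receptors and kinases upstream of these genes were listed as well. Jak1, Jak2, Ifngr2, a chain of the interferon-γ receptor, and Tnfrsf1a, the main TNF receptor, lay within 1.5-fold, with log2 fold changes of -0.00 ± 0.06, 0.04 ± 0.09, -0.05 ± 0.14 and 0.04 ± 0.10. Jak2 was at 66.2 and 68.9 CPM in replicate 3 of CTL and GAL and between 59.6 and 71.8 CPM in the 4 others, although it rose to 128 ± 14.0 CPM in CTK-2. Among the 14 genes of this list with a symbol, 2 were raised, among them Stat2, and 5 lay within 1.5-fold, near the 12.4% and 38.7% of all responsive genes. Among the strongest cytokine-responsive genes within 1.5-fold were Znfx1, which senses viral RNA, Rnf19b, a ubiquitin ligase, and Dll3, a Notch ligand. Their log2 fold changes without cytokines were 0.26 ± 0.15, 0.35 ± 0.12 and 0.14 ± 0.14, against 2.91, 2.90 and 2.84 in CTK-2 versus CTL.

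Of 9 complement and acute phase genes with a symbol, all responsive, 4 were raised, against 12.4% of all responsive genes. C2, C1r and C1s, proteases of the classical pathway, gave log2 fold changes of 3.90 ± 0.21, 3.18 ± 0.42 and 2.61 ± 0.46. Serping1, an inhibitor of C1r and C1s, gave a ratio of 25.9 (4.02 to 1086). The call of C1s was lost in the GAL arm alone and without CTL replicate 3. That of Serping1 was lost in either arm alone and without CTL replicate 3 or GAL replicate 3.

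**Figure D4:**
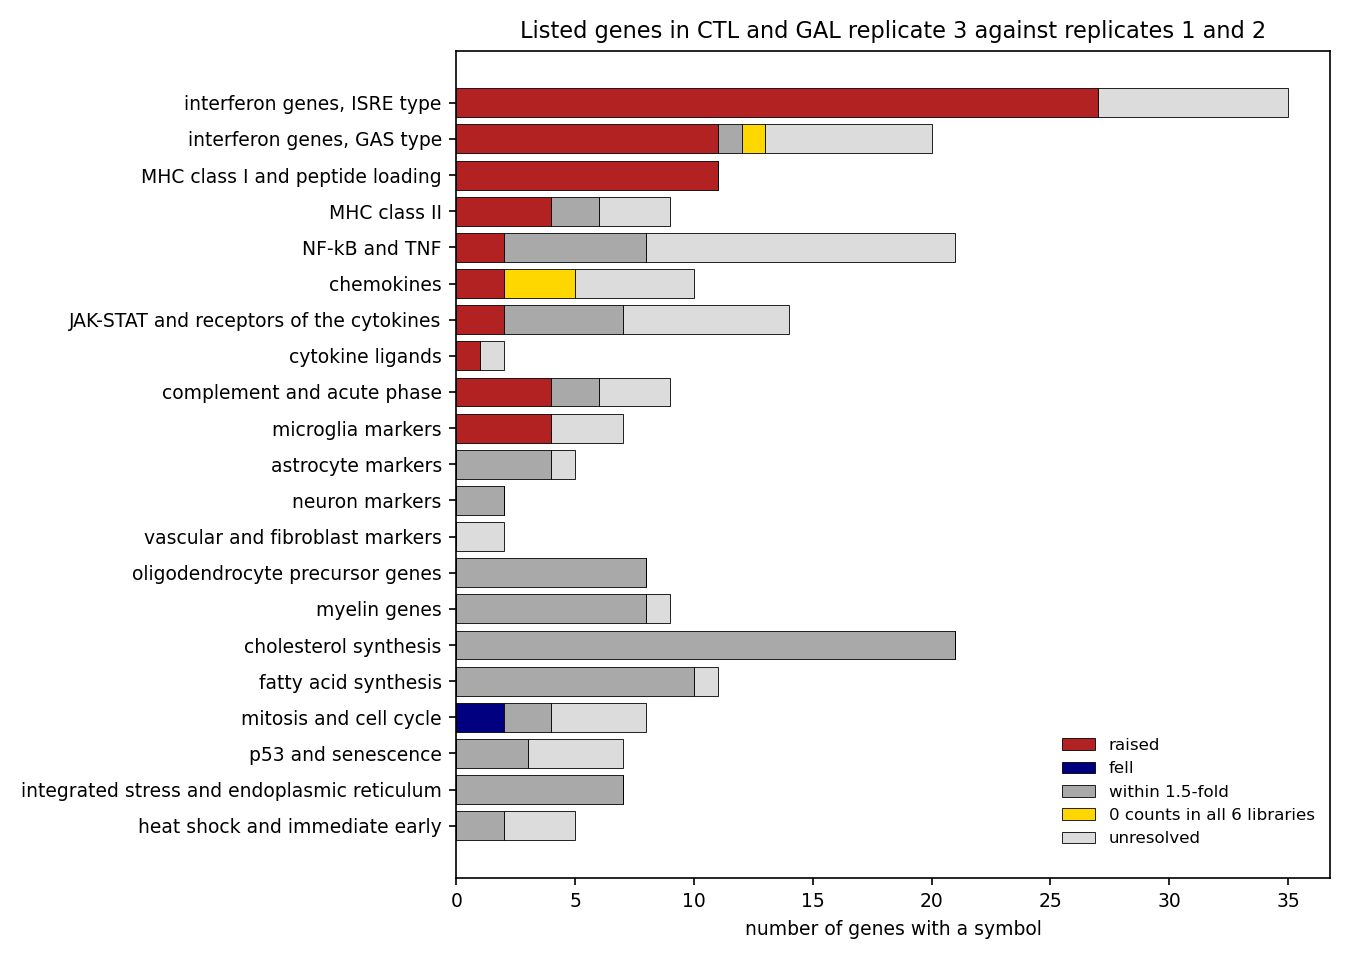
Number of genes with a symbol in each list that were raised, fell, lay within 1.5-fold, had no count in the 6 libraries without cytokines or could not be placed. Raised genes fill all of MHC class I (11 of 11) and most of the ISRE-type list (27 of 35), while cholesterol synthesis (21 of 21) and OPC genes (8 of 8) lie within 1.5-fold.

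Myelin and lipid genes, which cytokines lowered, mostly lay within 1.5-fold. This held for all 21 cholesterol synthesis genes, 10 of 11 fatty acid genes and 8 of 9 myelin genes with a symbol, against 75.8% of the genes lower with cytokines in both arms and 68.5% of all tested genes. Both replicate 3 libraries lay below the 4 others for 9 of 21 cholesterol, 5 of 11 fatty acid and 4 of 9 myelin genes. The same held for 39.8% of the genes lower with cytokines, against 9.59% of all tested genes. The cholesterol genes had negative log2 fold changes in 20 of 21 cases, with a median of -0.10. Hmgcs1, an early enzyme of the cholesterol pathway, was at 1318 CPM in CTL replicate 3 and 1429 CPM in GAL replicate 3, below the 1489 to 1601 CPM of the 4 others. Its log2 fold change was -0.16 ± 0.06, while cytokines lowered it to 620 ± 8.96 CPM in CTK-2. Listed genes of the integrated stress response lay within 1.5-fold in 7 of 7 cases.

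The 26 genes that fell included 8 with a symbol, and both replicate 3 libraries lay below the 4 others for all 26, against 9.59% of all tested genes. Of the 26, 6 were lower with cytokines in both arms, against 558 of all tested genes (4.18%). Erbb3, a neuregulin receptor of the lineage, was at 60.3 CPM in CTL replicate 3 and 68.4 CPM in GAL replicate 3. It was at 113 and 118 CPM in CTL replicates 1 and 2, and at 118 and 107 CPM in GAL replicates 1 and 2. Both replicate 3 libraries were below the 4 others and above CTK-2 with 15.3 ± 0.736 CPM, and they covered 55.1% and 44.6% of the cytokine decrease. Atp10b, a lipid flippase, was at 10.2 and 12.9 CPM in replicate 3 of CTL and GAL and between 21.2 and 24.4 CPM in the 4 others. The mitotic genes Bub1b and Birc5 fell by 0.99 ± 0.22 and 0.72 ± 0.20 on the log2 scale. They were the only members of 8 with a symbol that did, against 0.195% of all tested genes. Of the 8, 2 lay within 1.5-fold and 4 could not be placed, and the log2 fold change was positive for 3. Cdk1 was not called at -0.57. The call of Birc5 was lost by DESeq2 and when any 1 of the 6 libraries was left out. Those of Bub1b and Atp10b were lost without CTL replicate 3 and in the GAL arm alone.

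Among the cytokine libraries, which the split did not use, the replicate 3 difference was not detected. No gene of 13348 (0%) was called between replicate 3 and replicates 1 and 2 of CTK-2 and CTK2+GAL by edgeR, and none by DESeq2. At an unadjusted p of at most 0.05 there were 429 genes (3.21%). The 179 raised genes had a median log2 fold change of 0.01 there, from -0.85 to 0.81, with 99 above 0. Both replicate 3 libraries stood above the 4 others for 12 of them (6.70%), against 5.39% of all tested genes. Irf1 had a log2 fold change of -0.01 ± 0.06 and B2m one of 0.07 ± 0.07 among these libraries. In the difference between the replicate 3 terms without and with cytokines, 156 genes (1.17%) were called higher without cytokines and 5 (0.0375%) lower, and 150 of the 179 raised genes were among the 156. An equal increase in CPM is much smaller on the log2 scale when it is added to the cytokine level. For the raised responsive genes the median share of the cytokine increase was 14.0% in CTL and 12.8% in GAL. Neither the missing calls nor the difference between the terms therefore shows that the replicate 3 difference is absent with cytokines. The number 3 need not mark the same culture with and without cytokines.

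**Figure D5:**
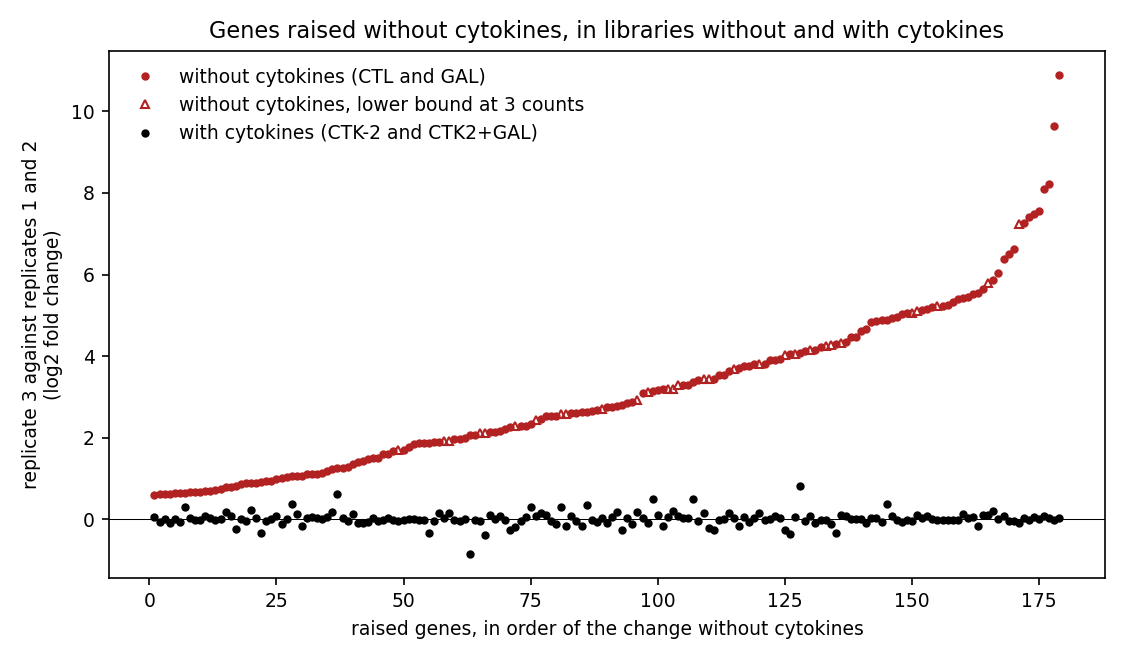
Log2 fold change of replicate 3 against replicates 1 and 2 for the 179 raised genes, in order of the change without cytokines. Red points and open triangles (lower bounds at 3 counts) are CTL and GAL, and dark points are CTK-2 and CTK2+GAL, which scatter around 0 between -0.85 and 0.81.

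CTL replicate 3 also enters the study's comparison of CTK-2 with CTL. B2m had a log2 fold change of 3.47 there, and of 7.01 without CTL replicate 3. Tap1 had one of 3.46 and of 6.77 without it, and Irf1 one of 4.35 and of 7.19 without it. These genes were chosen as high in that library, which fixes the direction of the move. B2m was no longer called in CTK-2 versus CTL without CTL replicate 1 or without CTL replicate 2, at log2 fold changes of 2.92 and 2.93.

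Markers of other cell types were examined in the same libraries. Of 26 listed microglia markers 7 have a symbol and 4 of these were raised, all from low counts, against 12.4% of all responsive genes. The calls of C1qc, Ptprc and Spi1 were lost when CTL replicate 3 or GAL replicate 3 was left out. Those of Ptprc and Spi1 were also lost without CTL replicate 2, by DESeq2 and in the 6 libraries without cytokines only. The call of Spi1 was further lost without CTL replicate 1, and that of Ptprc without GAL replicate 2. Csf1r, the receptor of Csf1, was at 2.11 CPM in CTL replicate 3 and 3.09 CPM in GAL replicate 3, and at 0.516, 0.397, 1.55 and 0.670 CPM in CTL and GAL replicates 1 and 2. Spi1, a myeloid transcription factor, had 8 counts over both replicate 3 libraries and none in the 4 others. The summed level of the 7 markers was 12.3 CPM in CTL replicate 3 and 11.3 CPM in GAL replicate 3, between 2.41 and 4.97 CPM in the 4 others, and between 23.7 and 33.3 CPM in the cytokine libraries. The most abundant, P2ry12, was not called, with means of 3.82 CPM in the 2 libraries, 1.85 CPM in the 4 others and 9.97 CPM with cytokines, and Cd14 had no count in either replicate 3 library. The part of microglia in the raised genes was not tested. The astrocyte markers with a symbol summed to 336 CPM in CTL replicate 3, 343 CPM in GAL replicate 3 and 382 to 421 CPM in the 4 others, with Aldoc the most abundant, and 4 of 5 lay within 1.5-fold. The neuron marker Tubb3 had means of 91.7 CPM in the 2 libraries and 83.1 CPM in the 4 others. Both neuron markers with a symbol lay within 1.5-fold, and the pair of vascular markers could not be placed. Of all tested genes 68.5% lay within 1.5-fold, so these counts of astrocyte and neuron markers show nothing particular to them. No T or B cell marker has a symbol here.

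CTL replicate 3 and GAL replicate 3 deviated from their group means together. The correlation of these deviations across genes, which are not independent replicates, was 0.597 for replicate 3 of CTL and GAL. It was 0.259 for replicate 1, 0.261 for replicate 2 and at most 0.239 for CTL and GAL libraries with different numbers. Deviations from a group mean cancel within the group, so the values of replicates 1 and 2 also carry the deviation of replicate 3. They are no independent background, and the correlations of CTL with GAL describe the libraries on which the split was drawn. Libraries of the same number gave 0.036 to 0.076 between CTL and CTK-2, 0.000 to 0.067 between GAL and CTK2+GAL, and -0.005 to 0.060 between CTK-2 and CTK2+GAL.

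Promoter letters were also counted over all raised genes, as a description. Of the 118 raised genes with a symbol, 91 had a RefSeq window of 250 bases before the start. ISRE letters stood in 35 of these (38.5%), against 3.29% of the windows of 27457 genes. GAS letters stood in 13 (14.3%, against 7.52%) and the NF-κB consensus in 11 (12.1%, against 3.52%). Letters of GAS, ISRE or both stood in 41 (45.1%, against 10.4%), so most raised genes with a window held neither. Of the responsive genes within 1.5-fold, 366 of 457 with a symbol had a window, of which 9 (2.46%) held ISRE letters, 22 (6.01%) GAS letters and 18 (4.92%) the NF-κB consensus. Of the responsive genes that could not be placed, 353 of 451 had a window, of which 21 (5.95%) held ISRE letters, 25 (7.08%) GAS letters and 37 (10.5%) the NF-κB consensus, so the share with NF-κB letters is close to that of the raised genes.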

How the data were processed

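Count values were deposited by the authors as whole read pairs per gene, without normalization or filtering, for 12 libraries. The authors used FastQC and STAR. Per the file headers, featureCounts 2.0.0 counted reversely stranded pairs per gene on Ensembl exons of the build mRatBN7.2. Pairs with several mapping places or several overlapping genes were not counted, so similar genes lose counts.

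Genes whose counts averaged 5 or more were fitted with TMM in edgeR 4.0.16 under R 4.3.3. The model held the means of the 4 groups, a term for replicate 3 without cytokines and a term for replicate 3 with cytokines. The cytokine comparisons used group means only. Adjusted p-values are Benjamini-Hochberg values over the whole table. Standard errors are the size of the log2 fold change over the root of F. Exact permutation of 2 against 4 libraries cannot go below a two-sided p of 0.133. No libraries were identical.

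The files hold no symbols. These came from a numeric match of the study's table of genes called in CTK-2 versus CTL, in which 1782 of 1786 entries found 1 gene, and 99.9% of 1765 with a chromosome in both annotations agreed on it. Named genes follow a rule: largest changes, smallest p per list, strongest responsive genes within 1.5-fold, extreme shares, and cytokine receptors. Others, such as Wars1, Tap2, Mx1, Jak1, Jak2, Tnfaip3, Pdgfra, Csf1r, P2ry12 and several chemokines, were named after their values were seen. The members and lists were chosen with earlier results of these data known. Alternatives were DESeq2 1.42.0, other scalings and filters, single arms, other thresholds, a replicate block and each replicate left out. The method was tested on simulated data.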

Additional observations from a re-analysis of the deposited data

Results flagged for a closer look

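The values of 6 named genes differed between the libraries without and with cytokines in the contrast of replicate 3 against replicates 1 and 2, and so did the counts of genes. In that contrast 156 genes were higher without cytokines and 5 were lower. The difference of the log2 fold changes was 4.23 ± 0.14 for Irf1, 4.87 ± 0.11 for B2m and 4.80 ± 0.11 for Tap1. It was 1.85 ± 0.10 for Stat2, 1.78 ± 0.10 for Csf1 and -0.89 ± 0.16 for Erbb3. The contrast uses the libraries that were singled out, so these values describe the split and support nothing further. For the genes that rose, an equal increase in CPM is also smaller on the log2 scale at the cytokine level. Single libraries were not examined as outliers of their group, since each group holds 3.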

How the results depend on the processing

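The count of 179 raised genes became 319 without a fold threshold and 106 in the GAL arm alone, and that of 26 genes that fell became 132 without a fold threshold, 10 by DESeq2, 4 at a 2-fold threshold and 4 in the GAL arm alone. The 500 responsive genes within 1.5-fold became 91 when the interval had to lie within 0.26. The 5 genes lower in the difference of the replicate 3 terms became 1 by DESeq2 and 9 without a filter on low counts. The cause of these moves was not tested, beyond the thresholds and fewer libraries themselves. Leaving out each library in turn gave 106 to 179 raised genes, 4 to 27 that fell and 340 to 503 within 1.5-fold. The lowest counts of raised and fallen genes came without CTL replicate 3, 13 genes fell without CTL replicate 1, and the lowest count within 1.5-fold came without GAL replicate 3. DESeq2 gave 154 raised genes.

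With the replicate block, CTK-2 versus CTL gave 1540 genes higher and 780 lower, against 1538 and 773, and CTK2+GAL versus GAL gave 1552 and 769, against 1558 and 766. Same-numbered libraries of CTL and CTK-2 correlated at 0.036 to 0.076, against at most -0.004 for different numbers, and those of CTK-2 and CTK2+GAL at -0.005 to 0.060, against at most 0.076. With CTL and GAL replicate 3 both left out, an alternative chosen after seeing the data, CTK-2 versus CTL gave 1650 and 913 and CTK2+GAL versus GAL gave 1642 and 844. Over 98 named genes, 1359 values of the split under the alternatives kept direction and call, 106 lost the call, 5 gained it, all of them for Stat3, and 0 reversed. For CTK-2 versus CTL 1333 were kept and 23 lost the call. Birc5, RT1-Da, Gbp4, Avil, Spi1, Cxcl10 and Ptprc lost it most often. Genes with few counts in replicates 1 and 2 limit what depth can show, and 612 responsive genes could not be placed.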
